A study of Neurospora crassa with 16 samples.

Results

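The genes described here are 7 of the 9730 genes of Neurospora crassa in the deposited tables, and they encode proteins found in the fungal cell wall. They were taken by locus tag: NCU05137 (ncw-1), NCU01752 (ncw-2), NCU07817 (ncw-3), NCU00716 (ncw-5), NCU08936 (acw-1), NCU05667 (acw-3) and NCU08909. The last was proposed under the name gel-1, but the RefSeq annotation NC12 gives NCU08909 the symbol gel-3 and gives gel-1 to NCU01162, so NCU08909 is called gel-3 below. The annotation lists NCU08936 as ccg-15, a clock-controlled gene, with acw-1 as its synonym. The 7 were chosen by name with their RNA levels and folds in the 3 genotypes in view, so those folds and their tests describe the genes and give no independent evidence.

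The series, of 16 samples in 8 groups of 2, concerns gene silencing by methylation of lysine 27 on histone H3. RNA was compared between wild type, a deletion of epr-1 and a deletion of set-7. SET-7 is the methyltransferase of the Polycomb repressive complex PRC2, and EPR-1 is a protein with BAH and PHD domains that acts downstream of the mark. The 2 RNA libraries of the series are delta epr-1::hph, from strain N7491 of mating type mat a (replicate 1) and strain N7479 of mat A (replicate 2), each grown with shaking for 16 h at 32 °C in minimal medium with sucrose. Wild type and delta set-7 had been published before, in an earlier series, and entered only through the deposited folds. Genotype and series therefore cannot be told apart in any comparison of delta epr-1, and no source used here says how those strains differ otherwise.

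The wall of a filamentous fungus is a mesh of β-1,3-glucan and chitin that carries glycoproteins. In N. crassa the NCW proteins are wall proteins without a membrane anchor, and the ACW proteins are made with a glycosylphosphatidylinositol (GPI) anchor, by which such proteins are held at the membrane or passed on to the wall. GEL proteins are GPI-anchored β-1,3-glucanosyltransferases, which cut and rejoin glucan chains, so gel-3 encodes a wall-building enzyme and not a structural protein in the strict sense.

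Replicate 1 held 10434667 reads in genes and replicate 2 held 10562443. The deleted gene NCU07505 kept 60 and 53 reads, and its log2 fold against wild type was -2.33 per the authors' deposited table (adjusted p = 2.76e-21). The set-7 gene stood at -1.65 in delta set-7 per the authors' deposited table (adjusted p = 0.0460). The samples are labelled germinated conidia, while the protocol speaks of mycelia. Of 6 conidial markers 5 were matched and none was at 0 reads, though con-13 had only 17 and 24. Their summed level was 2804 CPM (reads scaled to a common library total) in replicate 1 and 1926 in replicate 2. The drop lay in eas, which went from 1592 to 443 CPM. The markers con-8 (1160 to 1421 CPM), con-10 and con-13 were higher in replicate 2, and con-6 was slightly lower. All 5 hyphal markers had reads, with summed levels of 6195 and 5274 CPM.

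The 7 genes together took 2.18% of the reads in genes of replicate 1 and 2.36% of replicate 2. By the mean over libraries in the authors' deposited table, which includes wild type and delta set-7, their share of normalized counts was 3.49%. Levels below are normalized counts, not divided by gene length, so they can be compared between libraries but not between genes.

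Of the non-anchored proteins, ncw-1 stood at 27960 normalized counts in replicate 1 and 35480 in replicate 2. The gene ncw-3 stood at 13394 and 18938, and ncw-5 at 7034 and 8690. All 3 were thus higher in the mat A strain, by 0.34, 0.50 and 0.30 on the log2 scale. The gene ncw-2 went the other way, with 7254 normalized counts in replicate 1 and 5541 in replicate 2, a log2 ratio of -0.39.

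The anchored proteins and the enzyme varied less. The gene acw-1 had 57024 and 65110 normalized counts, a log2 ratio of 0.19. The gene acw-3 had 22543 and 23913, and gel-3 had 50700 and 54058, with a log2 ratio of 0.09 each. For comparison, the median absolute log2 ratio of the libraries was 0.13 over the 7108 genes whose mean reached 50 normalized counts, and ncw-3 lay at percentile 93.6 of those genes and acw-3 at 33.8. Reads were so many that counting error was small beside this spread: the interval of the ncw-3 ratio from counting alone was 0.47 to 0.53, and that of ncw-2 was -0.43 to -0.34. In all, 6 of 7 genes were higher in replicate 2, against 51.9% of the 7108 genes. Each mating type is 1 library, so mating type and library cannot be told apart.

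**Figure D1:**
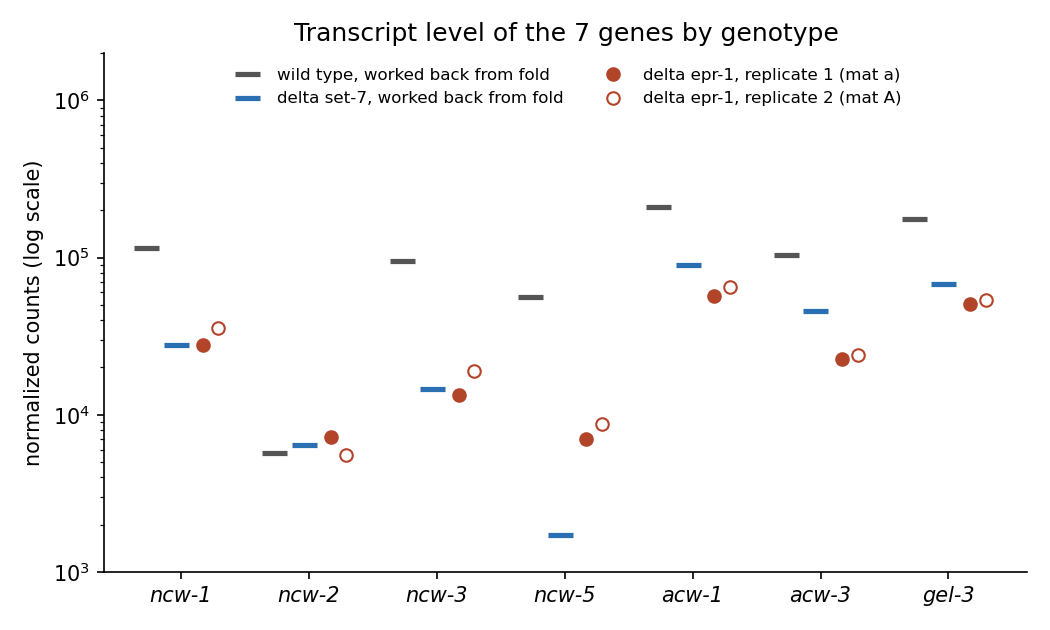
Normalized counts (log axis) of the 7 genes. Circles are the delta epr-1 libraries, and bars are the wild-type and delta set-7 levels worked back from the delta epr-1 mean and the authors' deposited folds, without error bars. Only points of the same gene should be compared: wild type lies above both mutants for every gene but ncw-2, and ncw-5 is the 1 gene with delta set-7 far below delta epr-1.

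Against wild type, 6 of the 7 genes fell in delta epr-1 per the authors' deposited table and ncw-2 did not pass the test. In that comparison 24.5% of all 8624 tested genes were called lower, 23.3% were called higher, and 11.2% were called lower with an absolute log2 fold of at least 1, which all 6 reached. Since the genes were chosen with this comparison known, nothing is read from that count. The median log2 fold of the 7 was -1.86, beside 0.00 over all tested genes, by the authors' deposited table. In bulk RNA, fewer cells of a type and less RNA per cell cannot be told apart.

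Among the NCW genes the largest fall was that of ncw-5, with a log2 fold of -2.83 (SE 0.14, 95% interval -3.11 to -2.55, adjusted p = 1.11e-85) per the authors' deposited table. This left 14% of the wild-type level. The gene ncw-3 had a log2 fold of -2.56 (SE 0.23, adjusted p = 3.89e-28) and ncw-1 stood at -1.86 (SE 0.14, adjusted p = 3.21e-39) per the authors' deposited table. The gene ncw-2 had a log2 fold of 0.17 (SE 0.17, interval -0.16 to 0.51, adjusted p = 0.423) per the authors' deposited table, so a change of up to 0.51 upward lies within its interval. Its fold was -0.03 without replicate 1.

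The chosen GPI-anchored genes acw-1, acw-3 and gel-3 fell within a narrow range. Their families spread more widely in delta epr-1, per the authors' deposited table. The log2 folds ran from -2.43 to 0.29 over 12 ACW genes and from -2.83 to -0.02 over 4 GEL genes. The gene acw-3 had a log2 fold of -2.16 (SE 0.09, adjusted p = 7.09e-119) and acw-1 of -1.78 (SE 0.13, adjusted p = 4.93e-41) per the authors' deposited table. The glucanosyltransferase gene gel-3 stood at a log2 fold of -1.75 (SE 0.11, adjusted p = 9.79e-53) per the authors' deposited table, which left 29.7% of the wild-type level. With either delta epr-1 library left out, each of the 6 falls was still called, and the smallest of these folds was -1.69, for acw-1 without replicate 1.

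**Figure D2:**
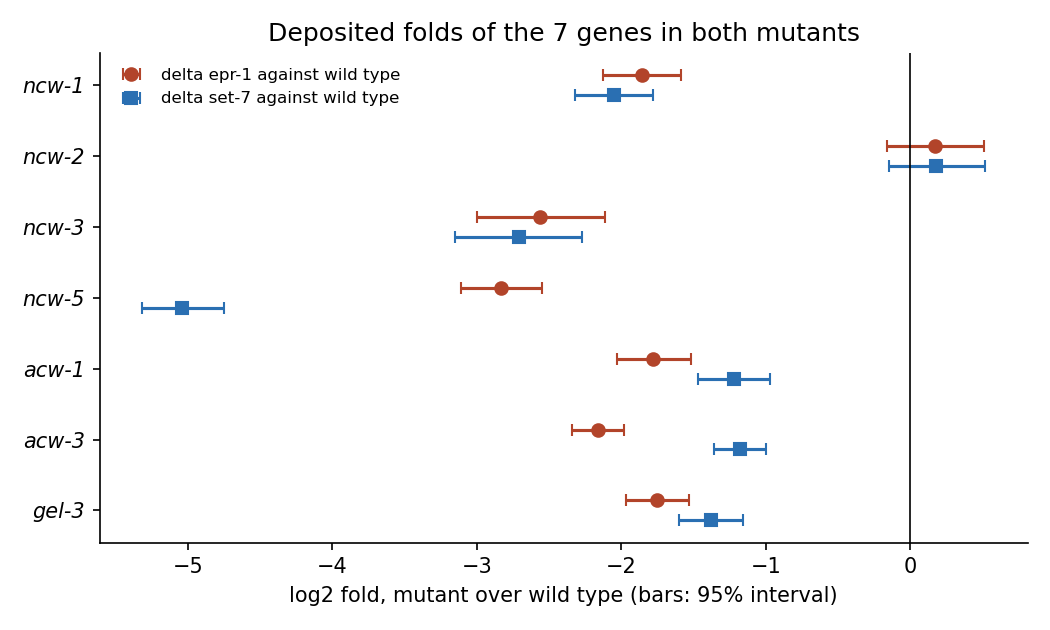
Log2 folds of the 7 genes in delta epr-1 (circles) and delta set-7 (squares) over wild type, by the authors' deposited tables, with 95% intervals from the deposited standard errors. The genes are at or below -1.18 in both mutants except ncw-2, whose intervals include 0.

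Loss of set-7 gave the same split of 6 genes lower and ncw-2 not called, per the authors' deposited table. Here 11.6% of 8254 tested genes were called lower, 10.3% higher, and 3.83% lower with an absolute log2 fold of at least 1, and the choice of genes used this comparison too. Both mutants were compared with the same wild-type libraries, so an error in wild type moves both folds, and the folds are given side by side only. Of the genes tested in both, 6.24% were called lower in both mutants.

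The fall of ncw-5 stood far from the rest, with a log2 fold of -5.04 (SE 0.14, interval -5.32 to -4.75, adjusted p = 2.05e-260) per the authors' deposited table. It was the 2nd lowest fold of all 8254 tested genes, and 3.05% of the wild-type level was left. The gene ncw-3 stood at -2.71 (SE 0.23, adjusted p = 8.07e-31) and ncw-1 at -2.05 (SE 0.14, adjusted p = 1.50e-46) per the authors' deposited table. The gene ncw-2 stood at 0.18 (SE 0.17, interval -0.15 to 0.52, adjusted p = 0.515) per the authors' deposited table.

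Of the 6 genes that fell, the anchored proteins and the glucanosyltransferase lost least in delta set-7. The folds were -1.18 for acw-3 (SE 0.09, adjusted p = 2.44e-35) and -1.22 for acw-1 (SE 0.13, adjusted p = 4.65e-19) per the authors' deposited table. The gene gel-3 stood at -1.38 (SE 0.11, adjusted p = 2.35e-32) per the authors' deposited table. The per-library values of delta set-7 were not used here, so no library of this comparison was left out.

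Levels in the other genotypes were worked back from the delta epr-1 mean and the deposited folds. For ncw-5 this gave 55975 normalized counts in wild type and 1706 in delta set-7, beside a mean of 7862 in delta epr-1. For acw-3 it gave 103739 and 45653, beside 23228. The mean over the 3 genotypes came to between 0.957 (ncw-3) and 1 (ncw-2) times the mean over libraries per the authors' deposited table. For the genes that fell, wild type makes up most of that mean, so this ratio says little about the mutant levels.

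The direct contrast of the mutants separated ncw-5 from acw-1, acw-3 and gel-3. Of the 7 genes, 1 was called higher in delta epr-1 relative to delta set-7 and 3 were called lower per the authors' deposited table, where 22.1% of 8809 tested genes were higher, 23.8% lower and 45.9% called in either direction. None of the 3 reached an absolute log2 fold of 1, which 10.9% of tested genes did on the lower side. The choice of genes used this contrast as well. The gene ncw-5 had a log2 fold of 2.20 in favour of delta epr-1 (SE 0.15, interval 1.92 to 2.49, adjusted p = 6.87e-50), per the authors' deposited table, a 4.61-fold difference. Its order was wild type, delta epr-1 and then delta set-7, with each step past the test.

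For acw-1, acw-3 and gel-3 the order of the mutants was the reverse. The gene acw-3 stood at -0.97 in delta epr-1 against delta set-7 (SE 0.09, interval -1.16 to -0.79, adjusted p = 1.20e-24) per the authors' deposited table. The gene acw-1 stood at -0.56 (SE 0.13, interval -0.81 to -0.30, adjusted p = 7.00e-05) and gel-3 at -0.37 (SE 0.11, interval -0.59 to -0.15, adjusted p = 0.00322) per the authors' deposited table. Without replicate 1 the gel-3 difference was -0.32 and no longer called (adjusted p = 0.0512), while ncw-5, acw-1 and acw-3 kept their calls without either library.

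The other NCW genes were not called in this contrast. The gene ncw-1 differed by 0.19 (SE 0.14, interval -0.08 to 0.46, adjusted p = 0.275) per the authors' deposited table. The gene ncw-3 differed by 0.15 (SE 0.23, interval -0.29 to 0.60, adjusted p = 0.625) per the authors' deposited table, and by -0.12 without replicate 2. The gene ncw-2 differed by -0.01 (interval -0.35 to 0.33, adjusted p = 0.971) per the authors' deposited table, and by 0.17 without replicate 2. These intervals bound the differences but do not show that the mutants have equal levels.

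**Figure D3:**
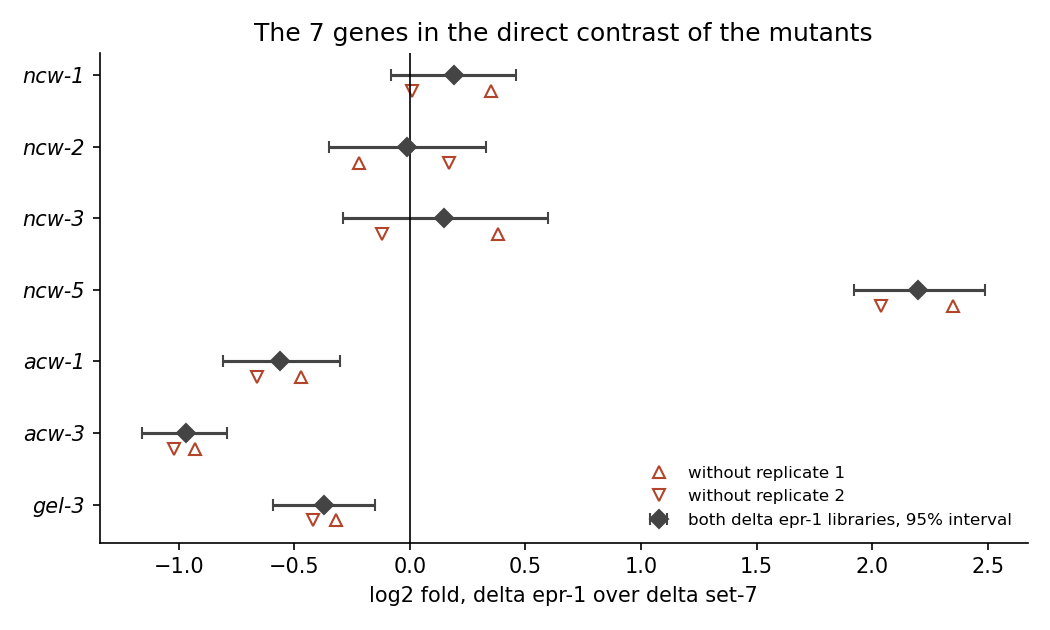
Log2 folds of the 7 genes in delta epr-1 over delta set-7, with 95% intervals, by the authors' deposited table (diamonds), and the folds with 1 delta epr-1 library left out (triangles). The gene ncw-5 lies above 0, acw-1, acw-3 and gel-3 lie below, and the intervals of ncw-1, ncw-2 and ncw-3 include 0.

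The rest of the same 3 protein families was counted from gene symbols. There were 16 further ncw, acw and gel genes, all tested. In delta epr-1, 11 were called lower and 0 higher, with a median log2 fold of -0.71, per the authors' deposited table. Over all tested genes there, 24.5% were called lower and 23.3% higher. In delta set-7, 9 were lower and 0 higher, with a median of -1.06, per the authors' deposited table. The shares of all tested genes there were 11.6% and 10.3%. The count of 11 in delta epr-1 rests on both libraries. Without replicate 1, acw-11 stood at -0.19 (from -0.35) and ncw-4 at -0.48 (from -0.78) in delta epr-1. The largest falls in delta epr-1 were those of gel-4 (-2.83), ccg-13, which is also named ncw-7 (-2.68), and acw-4 (-2.43), per the authors' deposited table. In delta set-7 they were those of gel-4 (-2.53), acw-12 (-2.44) and ccg-13 (-2.31), per the authors' deposited table. The annotated gel-1 (NCU01162) stood at -1.13 (adjusted p = 2.20e-11) and -1.17 (adjusted p = 8.94e-11) per the authors' deposited tables of delta epr-1 and delta set-7.

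The direct contrast was also counted by family, a grouping chosen after the values were seen and not tested. The families include members of the 7, which were chosen with this contrast known. Over all tested genes, 23.8% were lower and 22.1% higher in this contrast. Of 12 ACW genes, 8 were lower and 1 higher in delta epr-1 relative to delta set-7, with a median log2 fold of -0.53, per the authors' deposited table. Of 7 NCW genes, 2 were higher and 1 lower, with a median of 0.19, per the authors' deposited table. The higher ACW gene and the lower NCW gene were acw-12, which stood at 1.79, and ccg-13, which stood at -0.37, per the authors' deposited table. Without replicate 1, ccg-13 stood at -0.28 and was not called. Beside ncw-5, the higher NCW gene was ncw-6, at 1.09 (adjusted p = 0.00105) per the authors' deposited table. Other ACW genes moved as well with a library left out, so the ACW counts of 8 lower and 1 higher rest on both libraries. Without replicate 1, acw-11 stood at -0.34 (from -0.50). Without replicate 2, acw-2 stood at -0.26 (from -0.35) and acw-10 at 0.71 (from 0.46).

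The counts for genes that build or remodel the wall polymers are read against 23.3% of all tested genes called higher and 24.5% lower in delta epr-1, and 10.3% and 11.6% in delta set-7. Of 7 polymer synthase genes, 2 rose and 1 fell in delta epr-1, while 0 rose and 2 fell in delta set-7, per the authors' deposited tables. Without replicate 1, chs-4 (-0.48, adjusted p = 0.0379) was called as well, which made 2 lower in delta epr-1. The chitin synthase gene chs-5 fell in both mutants, with log2 folds of -1.77 and -1.05, per the authors' deposited tables. In delta epr-1, chs-3 (0.95) and chs-1 (0.67) rose per the authors' deposited table. The gene do, which encodes the β-1,3-glucan synthase FKS, stood at -0.94 in delta set-7 (adjusted p = 1.39e-15) and at 0.05 (adjusted p = 0.719) in delta epr-1, and the direct contrast gave 0.99 (adjusted p = 4.34e-18), per the authors' deposited tables.

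Of 19 genes for wall glycoside hydrolases and crosslinking enzymes, 17 were tested in each mutant. In delta epr-1, 6 rose and 4 fell, and in delta set-7, 4 rose and 4 fell, per the authors' deposited tables. The counts of 6 and 4 in delta epr-1 rest on both libraries. Without replicate 1, gh76-6 stood at 0.38 (from 0.56) and gh18-4 at 0.97 (from 1.05) in delta epr-1, and the fall of gh18-8 shrank to -0.60. Without replicate 2, gh81-1 stood at 0.98 (from 1.28) there. The GH18 gene gh18-5, of the chitinase family, rose by 1.61 and gh18-3 by 1.31 in delta epr-1, per the authors' deposited table. In delta set-7, gh18-4 rose by 1.25 and gh18-9 stood at -1.15 per the authors' deposited table. The chitinase gene chit-1 rose by 0.95 there (adjusted p = 0.001) per the authors' deposited table.

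Among 7 genes for GPI anchors and mannan, 2 rose and 2 fell in delta epr-1, and 0 rose and 1 fell in delta set-7, per the authors' deposited tables. Over all tested genes, 23.3% were called higher and 24.5% lower in delta epr-1, and 10.3% and 11.6% in delta set-7. The mannosyltransferase gene och-1 stood at 0.52 in delta epr-1 and at -0.63 in delta set-7 per the authors' deposited tables. Without replicate 1 the counts in delta epr-1 were 1 higher and 1 lower, since och-1 (0.44, adjusted p = 0.0568) and gpip-1 (-0.35, adjusted p = 0.148) were no longer called. The gene gpit-1, named for the GPI transamidase that attaches the anchor, stood at -0.51 in delta epr-1 (adjusted p = 5.00e-04) and at 0.02 in delta set-7 per the authors' deposited tables.

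For wall integrity signalling the shares of all tested genes were again 23.3% higher and 24.5% lower in delta epr-1. In delta set-7 they were 10.3% and 11.6%. Of 7 genes of wall integrity signalling, 1 rose and 2 fell in delta epr-1, and 0 rose and 3 fell in delta set-7, per the authors' deposited tables. The rise was that of rgf1 (0.29) per the authors' deposited table. Without replicate 1 it stood at 0.22 (adjusted p = 0.219), which left 0 risen. The wall sensor gene wsc-1 fell in both, with log2 folds of -1.0 and -1.09, and so did rho-1, which encodes a small GTPase, with -0.55 and -0.32, per the authors' deposited tables. The MAP kinase kinase gene mek-1 stood at -0.71 in delta set-7 (adjusted p = 2.63e-07) and at -0.11 (adjusted p = 0.491) in delta epr-1 per the authors' deposited tables.

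The last list held 3 secreted or surface genes. The gene ccg-14 fell in both mutants, with log2 folds of -3.46 and -1.94, per the authors' deposited tables. The hydrophobin gene eas, whose product coats conidia, stood at 1.65 in delta epr-1 (adjusted p = 0.0102) per the authors' deposited table. That value rested on replicate 1, with 16608 reads against 4679 in replicate 2, and was 0.51 and not called without it.

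**Figure D4:**
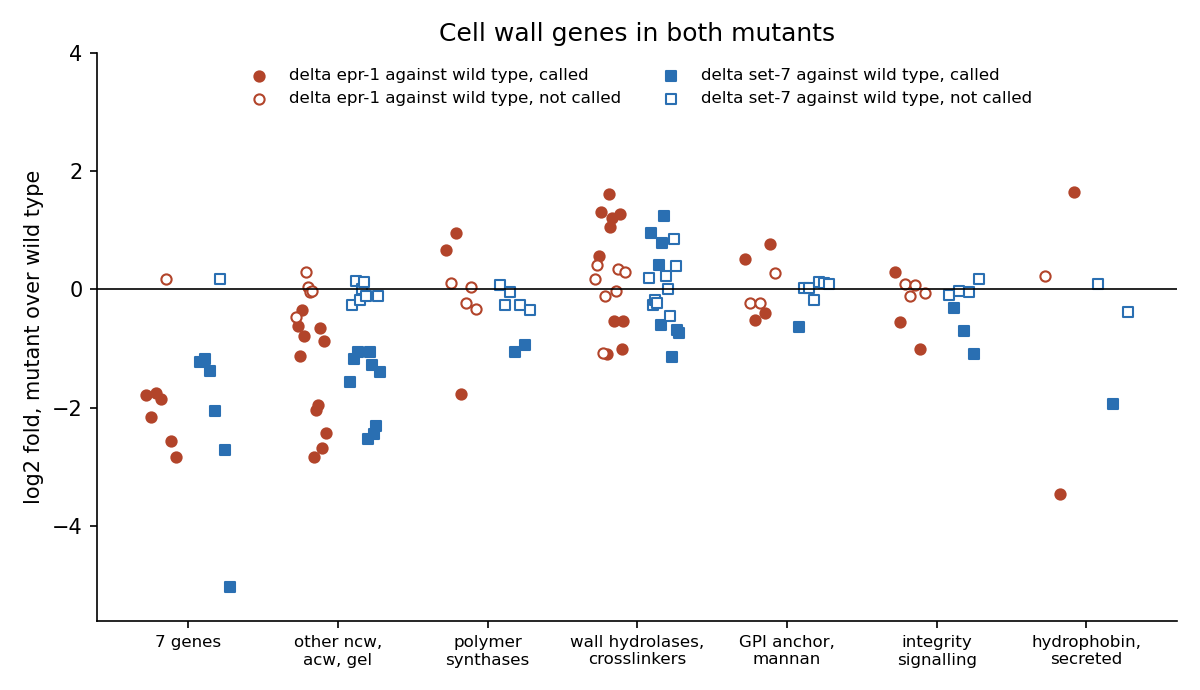
Log2 folds over wild type, by the authors' deposited tables, of the 7 genes and of 6 lists of other cell wall genes. Each point is a gene with an adjusted p, filled where it was called, with circles for delta epr-1 and squares for delta set-7. The filled points of the ncw, acw and gel genes lie below 0, while those of the hydrolases lie on both sides.

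Of the conidial markers, some were called lower and some higher. In delta epr-1, con-10 fell (-1.47, adjusted p = 0.00742) and eas rose (1.65, adjusted p = 0.0102, not called without replicate 1), per the authors' deposited table. The other conidial markers were not called there, with con-8 at -1.18 (adjusted p = 0.0686), con-6 at -0.29 and con-13 at -0.33, per the authors' deposited table. In delta set-7, con-10 stood at -2.23 (adjusted p = 8.04e-05), con-8 at -1.84 (adjusted p = 0.00747) and con-6 at 1.13 (adjusted p = 0.0208) per the authors' deposited table. There con-13 (-0.91) and eas (-0.38) were not called, per the authors' deposited table. Of the hyphal markers, tub-2 (-0.39), act (-0.25) and chs-1 (0.67) were called in delta epr-1 and hex-1 (-0.40) in delta set-7, per the authors' deposited tables. Their part in the falls of the wall genes was not tested.

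Position along the chromosome was read from the order of genes in the NC12 annotation. Of the 14 genes next to the 7, 12 were tested in delta epr-1, where 8 were called lower and 1 higher, and in delta set-7, where 6 were lower and 1 higher, per the authors' deposited tables. Over all tested genes 24.5% and 11.6% were called lower, and the difference was not tested. A neighbour of gel-3 is ccg-13, itself a wall protein gene, at -2.68 and -2.31 per the authors' deposited tables. Both neighbours of ncw-3 fell in both mutants, NCU07816 with log2 folds of -1.63 and -0.63 and NCU07818 with -1.48 and -0.78, per the authors' deposited tables. Beside acw-1, NCU08935 rose in delta set-7 (1.18, adjusted p = 1.16e-10) and was not called in delta epr-1 (0.34, adjusted p = 0.0873), per the authors' deposited tables.

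The annotated span of a neighbour overlapped that of ncw-1 (NCU05138), ncw-2 (NCU01751) and ncw-5 (NCU00715), and the strand setting of the counting was not given in the sources used here. In delta epr-1, NCU05138 stood at -1.28, NCU01751 at -0.07 and NCU00715 at 0.76 per the authors' deposited table. In delta set-7 none of the 3 was called, with NCU05138 at -0.12 (adjusted p = 0.799), NCU01751 at 0.16 (adjusted p = 0.562) and NCU00715 at -0.35 (adjusted p = 0.0888), per the authors' deposited table, where ncw-1 and ncw-5 fell. Reads that could not be given to 1 gene stood at a log2 fold of -0.87 in delta epr-1 (adjusted p = 3.14e-17) and at -0.19 in delta set-7 (adjusted p = 0.165) per the authors' deposited tables. The part of overlapping reads in the folds was not tested.

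Likeness to the 7 was measured as the distance between pairs of log2 folds in the mutants, delta epr-1 first, from the median pair of the 7 (-1.86 and -1.38), over 1024 genes with a symbol outside the lists. The nearest were al-1, the phytoene dehydrogenase gene of carotenoid synthesis (-1.75 and -1.28), set-5 (-1.87 and -1.12) and the blue-light-induced gene bli-4 (-2.31 and -1.28), per the authors' deposited tables. The distances were 0.15, 0.26 and 0.46. The measure covers 2 comparisons with a shared wild type and is a description only.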

How the data were processed

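Poly(A) RNA of Neurospora crassa was sequenced in 2 libraries of delta epr-1, and 3 genotype comparisons were read from tables of folds. The authors deposited a per-gene signal, the count of reads in each gene divided by a size factor of DESeq2, per the file headers. Bowtie2, DESeq2 and deepTools are named, with no versions, per the submitters' processing notes. Not given in the sources used here were the genome build, the read counter and any shrinkage of folds. The authors deposited log2 folds with standard errors, a Wald score, p-values and adjusted p-values, per the file headers.

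Both delta epr-1 columns were divided back into whole reads (100% of values within 0.01 of a whole number), at size factors of 1.22 and 1.18. Entries that name no gene, such as ambiguous reads, held 19.1% and 17.5% of the reads and stayed out of all totals and counts of genes. The other 4 per-sample columns were not used, since they belong to samples of another series, so no count model over the genotypes was fitted here. The deposited folds put the wild type, or delta set-7, first and were turned so that values above 0 mean a higher level in the mutant named first. Genes with an adjusted p below 0.05 were called, with no minimum fold. Intervals are 95% and were made from the deposited standard errors, or from Poisson counting for reads, which covers counting error only. For a fit with 1 delta epr-1 library, the fold was moved by how far that library lay from the mean of both in log2 (pseudocount 0.5). The variance due to delta epr-1 was solved from the 3 standard errors and doubled, and Benjamini-Hochberg adjustment was repeated. These steps were tested on simulated data.

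Gene symbols came from the RefSeq annotation NC12, which held 9729 of 9730 genes. It was used for names and for neighbours only, because the build behind the tables is not named, so levels were not divided by length and no coordinates are given. Protein and promoter sequences of the genes were not analysed here. The 7 genes, the 6 lists of other cell wall genes and the alternatives were chosen with earlier results of these data known. The genes named are the 7, the genes beside them and the markers. Of each list and comparison, at most 3 called genes with the largest folds are named. The 3 genes with the nearest pair of folds are named too. NCU01162 was added for its symbol. The genes acw-2, acw-10, acw-11, ncw-4, gh76-6, chs-4 and gpip-1 were added after their values were seen. The symbol gpi-1 was left out of the lists because it stands for glucosephosphate isomerase. Alternatives were a threshold of 0.01 for the adjusted p, a minimum absolute log2 fold of 1, a minimum mean of 50 normalized counts, no filter on low counts, recentring on the median fold, a pseudocount of 5 and the loss of either delta epr-1 library. Steps used Python 3.11.15, pandas 2.3.3, NumPy 2.4.6 and SciPy 1.17.1.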

Additional observations from a re-analysis of the deposited data

Results flagged for a closer look

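For 4 of the 7 genes, the effects of the 2 deletions differed by the direct contrast, which tests that difference, in the authors' deposited table. The same held for 20 of the other cell wall genes chosen for their large folds, in the authors' deposited table. Those genes were picked among genes called in any comparison, the direct contrast included. Passing it was thus settled beforehand for many of them, and nothing is read from the count of 20. In that contrast 45.9% of all tested genes were called, and the mutants came from different series, which cannot be told apart from their genotypes. Among the 7, ncw-5 was higher in delta epr-1 (2.20), and acw-3 (-0.97), acw-1 (-0.56) and gel-3 (-0.37) were lower, in the authors' deposited table.

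Of the same protein families, acw-12 (1.79) and ncw-6 (1.09) were higher in delta epr-1, and acw-4 (-1.04) and ccg-13 (-0.37) were lower, in the authors' deposited table. Among synthases, chs-3 (1.00), do (0.99) and chs-1 (0.59) were higher and chs-5 (-0.72) was lower in the authors' deposited table. Of the hydrolases, gh18-3 (1.49), gh18-9 (1.48) and gh18-5 (0.83) were higher and gh18-8 (-1.40) was lower in the authors' deposited table. In the anchor and mannan list, och-1 (1.15) and gpip-2 (0.66) were higher and gpit-1 (-0.53) was lower in the authors' deposited table. In signalling, mek-1 (0.60) and rgf1 (0.38) were higher and rho-1 (-0.23) was lower in the authors' deposited table. The hydrophobin gene eas was higher (2.03) and ccg-14 lower (-1.52) in the authors' deposited table.

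Without replicate 1, gel-3 (-0.32), ccg-13 (-0.28), gh18-5 (0.58), gh18-8 (-1.0), gpip-2 (0.49), rgf1 (0.31) and eas (0.88) were no longer called. Without replicate 2, rho-1 (-0.19) was not.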

How the results depend on the processing

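The falls of 6 genes in each mutant kept their direction and their call under every alternative run for them, and the median of all tested genes was within 0.01 of 0 before recentring. Requiring an absolute log2 fold of at least 1 left 0 of the 3 genes called lower in the direct contrast. The same rule left, of the other cell wall genes, 6 higher and 9 lower in delta epr-1 (from 12 and 21), 1 and 13 in delta set-7 (from 4 and 20) and 8 and 3 in the direct contrast (from 17 and 16). With 1 delta epr-1 library left out, the other cell wall genes called higher in delta epr-1 numbered 7 to 11. Of the 7 genes' folds that were not called, 3 changed sign with a library left out, and that of ncw-1 in the direct contrast did not (0.35 and 0.01). With replicate 1 or replicate 2 left out, ncw-2 stood at -0.03 or 0.36 in delta epr-1, and in the direct contrast ncw-2 stood at -0.22 or 0.17 and ncw-3 at 0.38 or -0.12. The cause was not tested. No paired analysis was possible because single libraries of wild type and delta set-7 were not used and only 1 group of RNA libraries has samples here. Levels per coding length were not computed. In the comparisons of delta epr-1, series changed together with genotype. The deposited errors cover only the spread between libraries. In delta epr-1 the libraries came from different strains, while for wild type and delta set-7 that spread may be technical.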
